A study of Mus musculus with 6 samples.

Results

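The 40 interferon-stimulated genes described here were taken by gene name from a list of transcription factors, RNA sensors, effectors and other known targets of the interferon response, and were read in 4 RNA-seq libraries of mouse bone marrow LSK cells. All 40 were listed in at least 1 library, out of 14455 gene symbols in all. LSK cells are sorted as lineage-negative, Sca-1 positive and Kit positive cells, and hold the blood stem cells and multipotent progenitors. Every animal was on the C57BL/6 background and had been given pI-pC (polyinosinic-polycytidylic acid), the wild-type (WT) animals included. The young WT and young Setd2 KO cells were taken 4 weeks after pI-pC, and the old WT and old Setd2 KO cells 8 months after it, with 1 library for each group. Setd2 encodes the methyltransferase that places trimethylation on a lysine of histone H3, and its deletion here was conditional. The labels did not name the Cre driver, the deleted exons, the age of the animals or how many animals were pooled. No difference below has a replicate check, so no p-value is given, and every value compares libraries rather than genotypes.

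Interferons are secreted proteins made when a cell senses viral or other foreign nucleic acid. Type I interferon binds the receptor made of Ifnar1 and Ifnar2, the kinases Jak1 and Tyk2 then activate transcription factors, and a complex that holds Stat2 and Irf9 binds a DNA element called the ISRE upstream of its target genes. The targets include RNA sensors, enzymes that degrade or modify RNA and protein, and GTPases that act on invading microbes, and several of them (Irf7, Ifih1, Ddx58) feed back to strengthen the response. In the bone marrow, interferon drives quiescent stem cells into cycle, and pI-pC, a mimic of double-stranded RNA sensed by Tlr3 and Ifih1, is a standard way to provoke it. It is also the usual trigger of the Mx1-Cre transgene, whose promoter comes from an interferon-stimulated gene. Sca-1, the product of Ly6a and part of the gate for these cells, is itself interferon-inducible.

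The core of the ISRE was searched as GAAA, any 2 bases and GAAA again (TTTC, any 2 bases and TTTC on the other strand) in windows from 250 bases before to 50 after each RefSeq transcript start of assembly GRCm38.p6. Overlapping matches were counted separately. Windows were at hand for 31 of the 40 members, and 15 of these 31 held at least 1 core. By window, 42.1% of the 38 member windows held the core, against 3.44% of all 32851 windows of that length. At least 2 cores stood in windows of 6 members and in 0.225% of all windows. The GAS core TTCNNNGAA, an element of genes induced by interferon gamma, was in 21.1% of member windows and in 8.30% of all windows. The 6 stretches below are the 150 bases just upstream of the start, 5′ to 3′ on the strand of the gene, with ISRE cores in capitals. They are shown because the first 4 genes were 2-fold higher in the old KO than in the old WT library, while Irgm1 and Ifi47, immunity-related GTPases on the same chromosome, did not reach 2-fold.
Isg15, chr4:156200819-156200968, minus strand: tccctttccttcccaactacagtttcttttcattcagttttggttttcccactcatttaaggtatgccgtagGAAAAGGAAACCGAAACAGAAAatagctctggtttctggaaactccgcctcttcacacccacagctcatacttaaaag
Ifit1, chr19:34640739-34640888, plus strand: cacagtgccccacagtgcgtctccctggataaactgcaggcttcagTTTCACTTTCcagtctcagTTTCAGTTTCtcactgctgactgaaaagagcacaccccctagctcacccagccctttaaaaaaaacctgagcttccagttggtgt
Oas3, chr5:120777660-120777809, minus strand: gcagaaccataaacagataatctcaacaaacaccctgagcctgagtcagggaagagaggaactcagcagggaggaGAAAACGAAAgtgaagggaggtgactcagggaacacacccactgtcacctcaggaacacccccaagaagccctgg
Oasl1, chr5:114923090-114923239, plus strand: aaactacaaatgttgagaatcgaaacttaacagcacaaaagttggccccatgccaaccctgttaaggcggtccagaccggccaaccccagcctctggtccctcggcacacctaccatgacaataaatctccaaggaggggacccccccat
Irgm1, chr11:48871421-48871570, minus strand: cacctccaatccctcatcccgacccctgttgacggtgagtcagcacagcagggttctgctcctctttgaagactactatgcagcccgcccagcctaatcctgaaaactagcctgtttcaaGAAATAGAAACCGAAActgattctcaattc
Ifi47, chr11:49076437-49076586, plus strand: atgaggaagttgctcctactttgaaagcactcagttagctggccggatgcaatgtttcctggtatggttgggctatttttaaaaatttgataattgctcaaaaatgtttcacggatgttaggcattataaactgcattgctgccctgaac
The Isg15 stretch held 3 overlapping cores, those of Ifit1 and Irgm1 held 2 each and that of Oas3 held 1. Those of Oasl1 and Ifi47 held none, so cores were present and absent both among genes past the 2-fold mark and among genes short of it. A match is a description of letters and not of a bound site.

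Levels are FPKM values (fragments per kilobase of transcript, scaled to sequencing depth) as the authors deposited them, multiplied by 1 factor per library (0.940 for young WT, 1.02 for each of the others) that brought the medians of the libraries together. The files listed only genes at FPKM 0.5 or more. A gene that was not listed is therefore below a scaled FPKM of 0.470 in WT against 0.510 in KO when young, and 0.509 against 0.511 when old, and was set at that limit. A difference is between values of log2(scaled FPKM + 1), a scale that understates the change of low genes, and 2-fold means a difference of 1 on it. A gene counts as measured in a comparison when it reached a scaled FPKM of 1 in at least 1 of its libraries. Each library listed between 13173 and 13318 gene symbols. The spacing of the values gave the counting error of a log2 ratio of FPKM, with no 1 added. For a transcript of 2 kb at a scaled FPKM of 1 it was 0.47 in the young and 0.34 in the old comparison. At a scaled FPKM of 10 it was 0.15 and 0.11. On the scale of the differences, with 1 added, the error is smaller, most of all at low levels. These errors cover counting only, not differences between animals. They take 2 steps of the spacing as 1 counted unit in the young libraries and 1 step in the old ones. Whether a unit is a read or a fragment is unknown, so the lower old error may not mean higher precision.

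Setd2 itself stood at a scaled FPKM of 14.1 and 12.4 in the young WT and KO libraries and 15.3 and 15.5 in the old ones. A whole-gene value does not read out the loss of some exons, so it checks nothing about the genotype, and the groups are named as labelled. Kit, part of the sorting gate, was at 61.0, 52.9, 44.5 and 41.1, and the Sca-1 gene Ly6a was at 4.86, 3.17, 8.80 and 4.18. The young and old libraries also stood apart in the sex-linked genes Xist and Eif2s3y. Age, sex and any difference in handling therefore cannot be told apart in comparisons of young with old. Of the other series samples, the 2 bisulfite libraries were not analysed here.

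In the old libraries the members were higher in Setd2 KO as a group. Of 39 measured members, 38 were above their old WT level, where 50.3% of all measured genes were, and Ifi47 was the exception. The median difference was 0.46, with a range of -0.04 to 2.13, against a median of 0.00 over all measured genes. At the 2-fold mark 8 members were higher and 0 lower, while 1.63% of all measured genes were higher and 2.66% lower. The 8 became 5 under upper-quartile or total scaling, when Ifit1, Mx1 and Oasl1 dropped below the mark, and 1 (Ifi27l2a) with a pseudocount of 5. Among genes within the members' range of mean level, 1.67% were 2-fold higher and 48.8% were above 0. The 8 were Isg15, Oas2, Oas3, Oasl1, Ifit1, Mx1, Rtp4 and Ifi27l2a, which span a ubiquitin-like modifier, members of the oligoadenylate synthetase family, an RNA-binding protein, a dynamin-like GTPase, a receptor transporter and a mitochondrial protein.

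In the young libraries the same genes lay close together. Of 38 measured members, 16 were above and 22 below the young WT level, where 50.5% of all measured genes were above it, and without scaling 11 of 39 were above. The median difference was -0.08, with a range of -0.84 to 0.53, and 0 members were 2-fold higher or lower, against 1.02% and 0.701% of all measured genes. At a 1.5-fold mark 0 of the 38 members were higher and 3 lower, where 512 and 452 of all 12409 measured genes were. The summed scaled FPKM of the 40 members was 295 (WT) and 280 (KO) in the young pair and 282 (WT) and 426 (KO) in the old pair. The first 3 sums lay close together and the old KO sum stood above them.

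**Figure D1:**
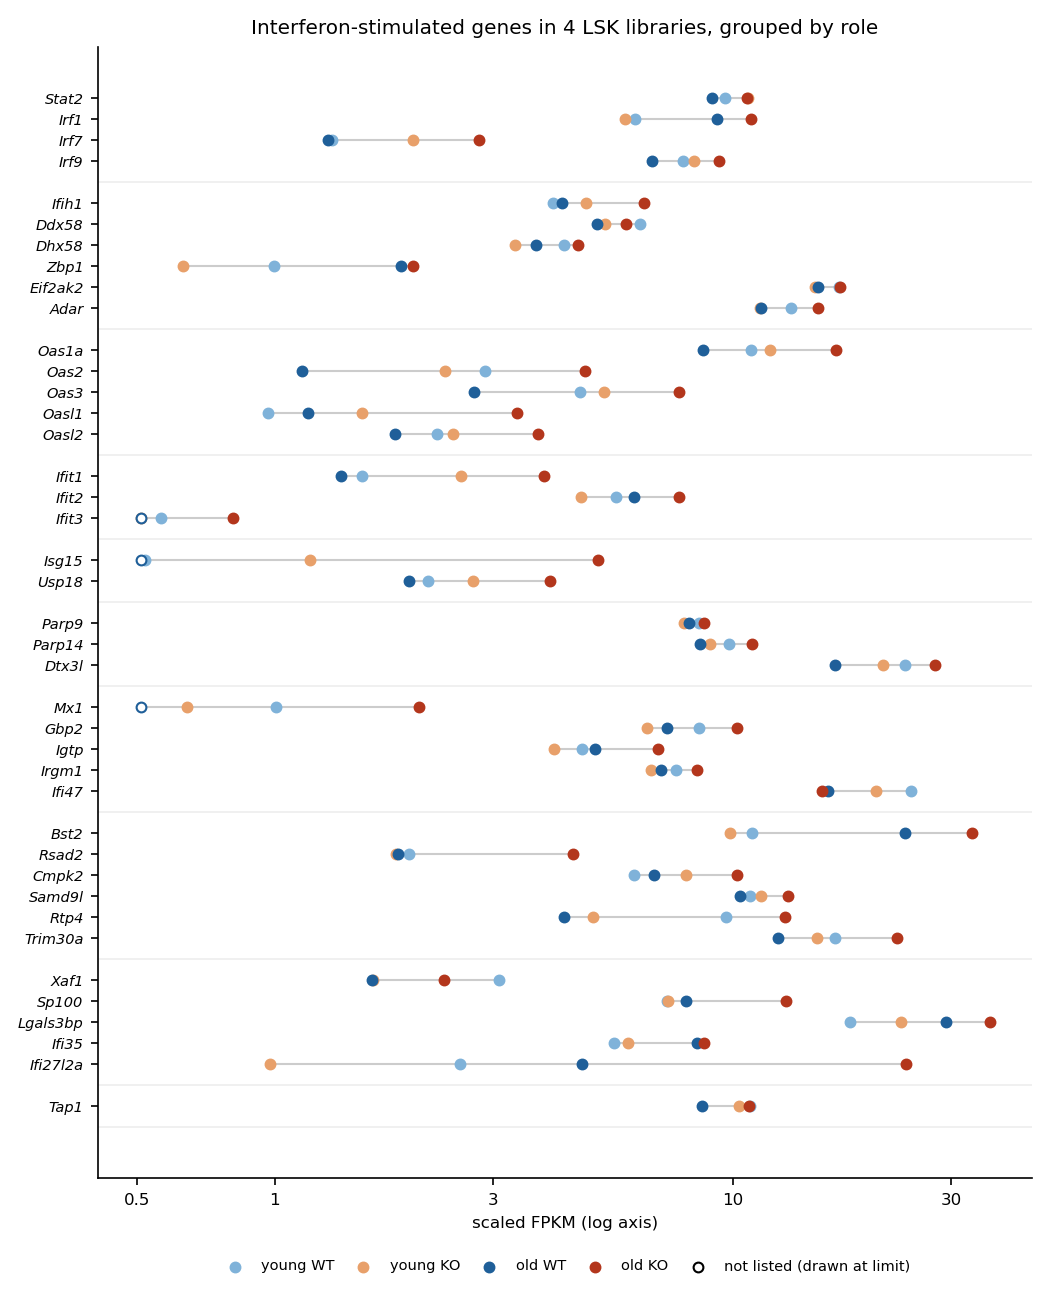
Scaled FPKM (log axis) of each of the 40 members, grouped by role, with 1 point for each of the 4 libraries and unlisted genes drawn at their upper limit. The old KO point is the highest for 35 members, and Ifi27l2a has the widest spread.

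The 4 member transcription factors carry the signal or amplify it. Stat2, a factor of type I and type III interferon signalling, was at a scaled FPKM of 9.62 in WT against 10.8 in KO when young, and 9.02 against 10.7 when old. Irf9, the DNA-binding subunit that joins it, was at 7.80, 8.22, 6.65 and 9.32 in the same order. The difference between KO and WT was 0.15 in the young and 0.23 in the old pair for Stat2, and 0.07 (-0.04 without scaling) and 0.43 for Irf9. Irf7, which drives interferon alpha genes and is itself induced, was at 1.33, 2.00, 1.3 and 2.79, so the WT libraries lay close to each other and the old KO library was the highest. The difference for Irf7 was 0.37 in the young and 0.72 in the old comparison. Irf1, which responds mainly to interferon gamma, was at 6.13, 5.83, 9.27 and 10.9, with both old libraries above both young ones.

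None of the 6 RNA and DNA sensors and RNA-modifying members reached 2-fold between KO and WT at either age. Ifih1, which encodes the long double-stranded RNA sensor MDA5, was at a scaled FPKM of 4.05 and 4.80 in the young WT and KO libraries and 4.24 and 6.41 in the old ones. It had the largest old difference of these 6, at 0.50. Ddx58, which encodes RIG-I, was at 6.28, 5.26, 5.06 and 5.84, and Dhx58, a regulator of both sensors, at 4.29, 3.35, 3.71 and 4.60. In both genes the young KO library was below young WT and the old KO library above old WT. The kinase Eif2ak2 (PKR), which halts translation on double-stranded RNA, was at 17.1 (WT) and 15.2 (KO) in the young pair and 15.3 (WT) and 17.1 (KO) in the old pair. Adar, the enzyme that edits adenosine in double-stranded RNA, was at 13.4, 11.5, 11.6 and 15.4. Zbp1, a sensor of Z-form nucleic acid, was near the measuring limit in the young libraries (0.995 and 0.630) and at 1.89 and 2.00 in the old ones. The median difference of the sensors was 0.21 in the old and -0.21 in the young comparison.

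The oligoadenylate synthetases, which activate RNase L to degrade RNA, showed higher old differences than the sensors, with a median of 1.01 over the 5 members and 3 of them 2-fold higher. The clusters lie on chromosome 5 of mm10, with Oas2 (120730333 to 120749853), Oas3 (120753098 to 120777661) and Oas1a (120896256 to 120907521) in one and Oasl2 and Oasl1 (114896936 to 114937915) in the other. Oas2 was at a scaled FPKM of 2.88 in WT against 2.35 in KO when young, and 1.15 against 4.77 when old. Oas3 was at 4.64, 5.23, 2.72 and 7.65, and Oas1a at 11.0, 12.1, 8.62 and 16.8. In all 3 the old WT library was the lowest and the old KO library the highest, with the young libraries between them. The old difference was 1.43 for Oas2, 1.22 for Oas3 and 0.89 for Oas1a, and the young difference was -0.21, 0.14 and 0.13. Oas1a shares near-identical sequence with other Oas1 copies, so its reads may be split among them. Oasl1, a catalytically inactive relative that limits Irf7 translation, was at 0.964, 1.55, 1.18 and 3.38, and Oasl2 at 2.26, 2.45, 1.83 and 3.75. Old KO was again the highest library for both, with old differences of 1.01 and 0.75.

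The Ifit genes encode tetratricopeptide proteins that bind foreign RNA, and lie together on chromosome 19. Ifit1 (34640871 to 34650009) was at a scaled FPKM of 1.55 and 2.55 in the young WT and KO libraries and 1.39 and 3.87 in the old ones. KO was the higher library at each age, by 0.47 in the young and 1.03 in the old comparison. Ifit2 was at 5.55, 4.67, 6.10 and 7.64, with a smaller old difference of 0.28. Ifit3 was listed only in young WT (0.562) and old KO (0.810), stayed below 1 throughout and so was not counted as measured. Reads may be shared with its near-identical copy Ifit3b.

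Isg15 (ENSMUSG00000035692), on chromosome 4 (156199424 to 156200818), encodes the ubiquitin-like protein that is attached to other proteins during the response. Its scaled FPKM was 0.519 in young WT, against 1.19 in young KO. It was not listed in old WT, and was at 5.08 in old KO. Both KO libraries were above both WT libraries, and in the old comparison Isg15 was at least 9.99-fold higher in KO on the scale of FPKM. With old WT at its limit the old log2 difference was 2.01, and the young one was 0.53. Usp18, which removes ISG15 from proteins and damps signalling at Ifnar2, was at 2.16, 2.71, 1.97 and 3.99. It was higher in KO at each age, by 0.23 in the young and 0.75 in the old comparison.

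Dtx3l and Parp9 encode partners in an ADP-ribosylating ubiquitin ligase and start next to each other on chromosome 16 (35926511 to 35972605), where their loci overlap. Dtx3l was at a scaled FPKM of 23.8 (WT) and 21.3 (KO) in the young pair and 16.8 (WT) and 27.6 (KO) in the old pair, and Parp9 at 8.45, 7.82, 8.03 and 8.68. Dtx3l was therefore 1.65-fold higher in old KO than in old WT as a ratio of scaled FPKM, while its neighbour differed by 0.10 on the log2 scale. Without the strand used in counting, reads of the overlap cannot be assigned to either gene. Parp14, another ADP-ribosyltransferase, was at 9.82, 8.94, 8.48 and 11.0.

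Of the GTPases, Mx1, on chromosome 16 (97447035 to 97462907), encodes a dynamin-like antiviral protein and is annotated by RefSeq as a transcribed pseudogene in the mouse reference strain. Its scaled FPKM was 1.01 in young WT, against 0.643 in young KO. It was not listed in old WT, and was at 2.06 in old KO, at least 4.05-fold higher than old WT. Old KO was thus the highest library and old WT the lowest. Gbp2, a guanylate-binding protein that attacks pathogen vacuoles, was at 8.46, 6.49, 7.19 and 10.2. The immunity-related GTPases differed less: Igtp was at 4.70, 4.07, 5.01 and 6.87, and Irgm1, a regulator of the family, at 7.54, 6.64, 6.98 and 8.37. Both were lower in young KO and higher in old KO than in the matching WT. Ifi47 was at 24.5 in WT against 20.5 in KO when young, and 16.2 against 15.7 when old, the only member lower in KO at each age, by -0.24 and -0.04.

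Among the antiviral effectors, Rtp4, on chromosome 16 (23609919 to 23614222), which encodes a Golgi chaperone for receptors with antiviral activity, was at a scaled FPKM of 9.67 and 4.95 in the young WT and KO libraries and 4.28 and 13 in the old ones. It took opposite directions at the 2 ages, with a difference of -0.84 in the young and 1.41 in the old comparison. Rsad2 (viperin), which makes a chain-terminating nucleotide, and Cmpk2, the nucleotide kinase beside it on chromosome 12, were not alike in size. Rsad2 was at 1.97, 1.84, 1.86 and 4.49, level in 3 libraries and higher in old KO, while Cmpk2 was at 6.08, 7.93, 6.74 and 10.2. Trim30a, a tripartite-motif protein, was at 16.7, 15.3, 12.6 and 22.9, with an old difference of 0.81 and a close copy, Trim30d, that may share its reads. Samd9l, a restriction factor for poxviruses and a regulator of progenitor growth, was at 10.9, 11.6, 10.4 and 13.2. Bst2 (tetherin), which holds budding virions at the cell surface, was at 11.0 (WT) and 9.89 (KO) in the young pair and 23.9 (WT) and 33.4 (KO) in the old pair. Both old libraries of Bst2 were above both young ones, and the KO difference at the later time was 0.47.

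The remaining members hold the largest single difference. Ifi27l2a (ENSMUSG00000079017), on chromosome 12 (103442167 to 103443680), encodes a small mitochondrial protein and was at a scaled FPKM of 2.54 in WT against 0.974 in KO when young, and 4.68 against 23.9 when old. Old KO stood far above the other libraries, 5.12-fold above old WT and 24.6-fold above young KO as ratios of scaled FPKM, while young KO was the lowest. Its near-identical copy Ifi27l2b may share its reads. Xaf1, a pro-apoptotic antagonist of XIAP, was at 3.10, 1.64, 1.63 and 2.34, and Sp100, a component of nuclear bodies, at 7.21, 7.24, 7.92 and 13.1. Sp100 was level in 3 libraries and higher in old KO. Lgals3bp, a secreted glycoprotein, was at 18.0 and 23.3 in the young WT and KO libraries and 29.3 and 36.4 in the old ones, higher in KO by 0.35 and 0.30 and higher in both old libraries. Ifi35 was at 5.52, 5.92, 8.38 and 8.67, and Tap1, the peptide transporter of class I antigen presentation, at 10.9, 10.4, 8.56 and 10.9. Ifi35 hardly differed with genotype, and Tap1 was lowest in old WT.

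**Figure D2:**
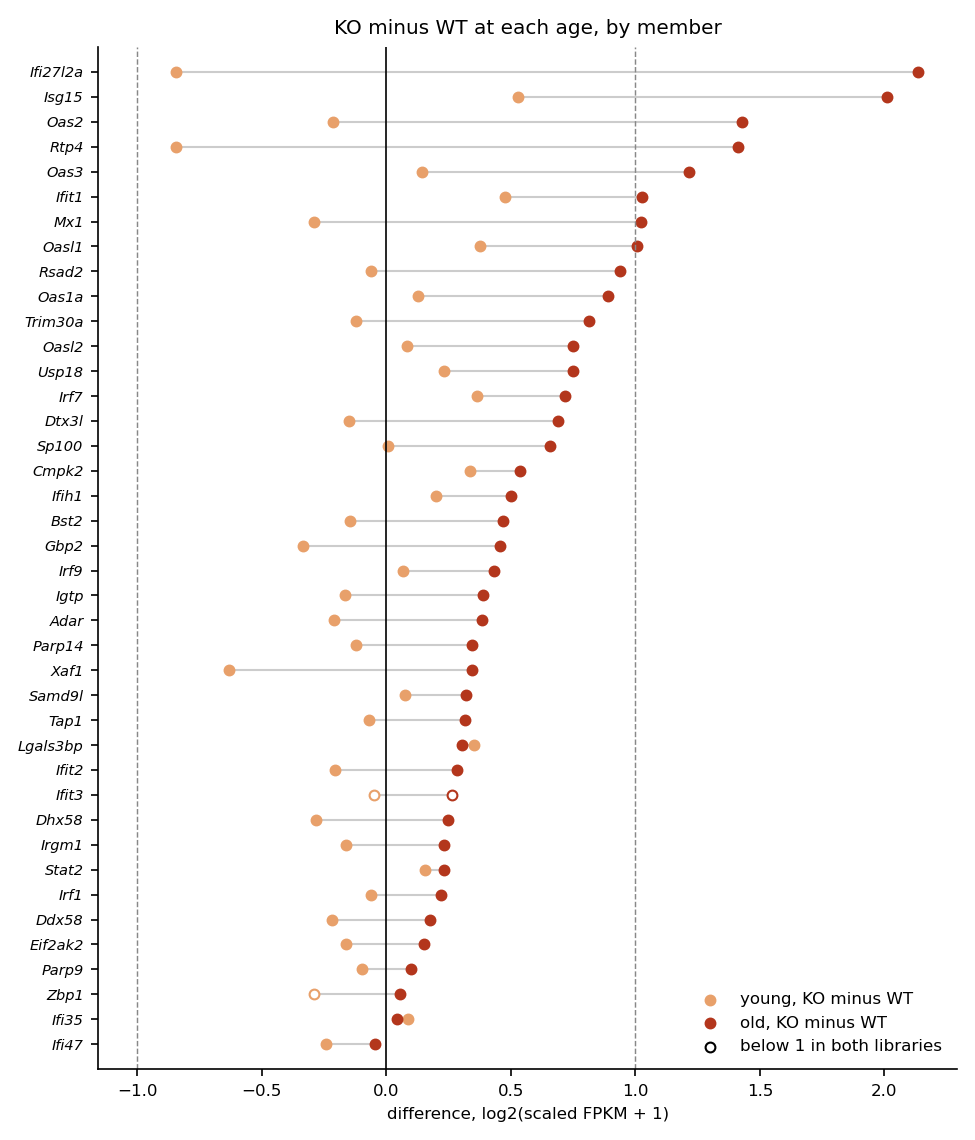
Difference in log2(scaled FPKM + 1), KO minus WT, for each member in the young and the old comparison, with the 2-fold mark. Old differences of 38 of 39 measured members lie above 0, and young differences lie on both sides of it.

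Of the 38 members measured in both comparisons, 16 were higher in KO at both ages, against 26.2% of all genes, and 21 were lower in young KO and higher in old KO, against 24.3%. In 9 of the 21 both differences were at least 0.2 in size, a rule met by 5.39% of all genes. Ifi47 was lower at both ages. The young signs depend on the scaling, as given above. The old difference minus the young difference was above 0 for 36 of 38 members measured in both, with a median of 0.54. It reached 1 for 7 of them (2 with a pseudocount of 5, when the median was 0.31) and -1 for 0, against 49.7% of all genes above 0, 2.65% at 1 or more and 3.74% at -1 or less. Since each group is 1 library, this change between ages was not tested. Old KO was the highest library for 35 of 40 members, and the exceptions were Stat2, Ddx58, Ifi47, Xaf1 and Tap1. Among members measured in any comparison it was the highest for 34 of 39, against 28.3% of all genes so measured. Of the 39 members measured in any comparison, old WT was the lowest for 19 (23.8% of all genes) and young KO for 13 (23.5%).

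**Figure D3:**
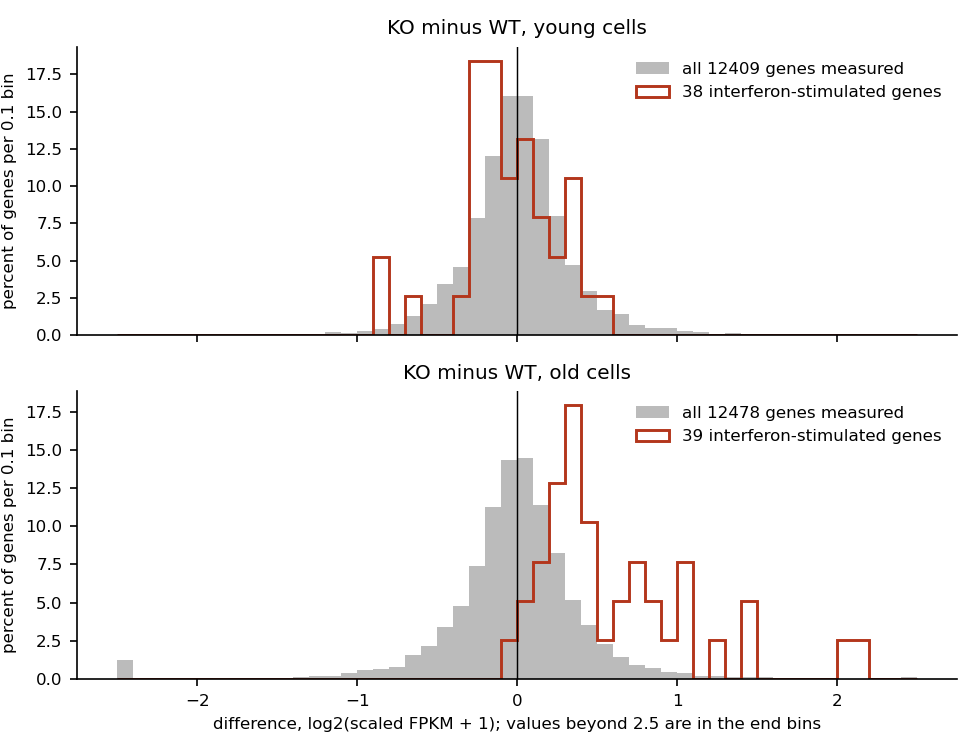
Histograms of the difference in log2(scaled FPKM + 1), KO minus WT, in the young (top) and old (bottom) libraries. Filled bars give the percent of all measured genes per bin, and the outline gives that of the measured members. The members lie around 0 in the young panel and mostly above 0 in the old panel, where Isg15 and Ifi27l2a are at 2.01 and 2.13.

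The comparisons of old with young use the same libraries as those of KO with WT and are not independent of them. In WT, 12 of 38 measured members were higher in the old library, against 49.2% of all genes, with a median of -0.10. Bst2 was the 1 member 2-fold higher (4.22% of all genes) and Rtp4 the 1 member 2-fold lower (1.33% of all genes). Bst2 missed the mark without scaling, with upper-quartile or total scaling and with a pseudocount of 5, and Rtp4 missed it with a pseudocount of 5. In KO, 37 of 39 were higher in the old library, against 49.8% of all genes, with a median of 0.46. Isg15, Bst2, Rtp4 and Ifi27l2a were 2-fold higher (4.95% of all genes) and 0 members were 2-fold lower (2.24%). The 4 became 2 with a pseudocount of 5 and 8 with 0.1. For 23 of 39 measured members, against 12.1% of all genes, old WT was below young WT while old KO was above young WT.

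The rest of the pathway was read from a list of 149 genes, of which 125 were listed in at least 1 library. Of the 21 interferon ligand genes on it, 5 were listed, all in old KO and in no other library, where 1.74% of all symbols were listed only there. Ifnb1, the interferon beta gene, was at a scaled FPKM of 1.88, Ifna1 at 2.38, Ifna2 at 2.30 and Ifna4 at 0.806 in old KO. Interferon gamma (Ifng) was at 0.843. Apart from Ifna1, these ligands were named after their values were seen. The type I genes lie in a cluster on chromosome 4 and lack introns, and the interferon alpha genes are near-identical copies whose reads may be shared or misplaced. The values of Ifnb1 (88522025 to 88522774) rested on 25 counted units, the smallest step in the deposited values, with an exact Poisson 95% interval of 16.2 to 36.9. Ifna2 (88682881 to 88683912) rested on 42 units (30.3 to 56.8), Ifna1 (88850087 to 88850656) on 24 (15.4 to 35.7) and Ifna4 (88841861 to 88842421) on 8 (3.45 to 15.8). A gene absent from the old WT file could still have had up to 6.70 units for Ifnb1, 9.22 for Ifna2, 5.09 for Ifna1 and 5.01 for Ifna4. These ligands were listed only in old KO and were picked by their values there. Setting their intervals against that limit therefore does not test a difference between the libraries. These intervals cover counting error only. They take each unit as an independent count, though whether a unit is a read or a fragment is unknown.

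Of 6 receptor genes 5 were measured. Ifnar1 was at a scaled FPKM of 11.9 (WT) and 13.7 (KO) in the young pair and 10.6 (WT) and 12.2 (KO) in the old pair, and Ifnar2 at 14.8, 15.7, 12.8 and 19.2. The interferon gamma receptor chains Ifngr1 and Ifngr2 were at 34.2, 38.9, 37.1 and 43.3, and at 8.54, 8.59, 9.24 and 11.9. All 5 were higher in old KO than in old WT, against 50.3% of all measured genes. The median difference was 0.22, and Ifnar2 had the largest, 0.55. The kinases Jak1 and Tyk2 were at 32.0, 35.0, 32.5 and 38.2 and at 20.6, 21.9, 18.5 and 18.9. Their old differences were 0.23 and 0.03. The feedback inhibitor Socs1 was at 1.29, 2.40, 2.01 and 2.97, and the phosphatase Ptpn6 at 14.7, 20.7, 20.6 and 37.7. Both were higher in KO at each age, and Ptpn6 is also abundant in myeloid cells.

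Of the other interferon regulatory factors, Irf2 (18.0, 16.2, 19.4 and 19.7 scaled FPKM) and Irf3 (25.6, 25.8, 27.3 and 31.6) had old differences of 0.02 and 0.20. Irf8, which also directs monocyte and dendritic cell development, was at 12.7 in WT against 10.5 in KO when young, and 11.7 against 37.5 when old, a difference of 1.60 in the old comparison. In the induction pathway, the adaptor Mavs was at 5.91, 7.68, 4.99 and 6.31 and Tlr3 at 0.670 and 0.651 in the young libraries, unlisted in old WT and 0.663 in old KO. Neither stood apart in old KO. Traf3 was at 3.59, 1.94, 1.75 and 1.53, with young WT the highest. Trim25, the ubiquitin ligase that activates RIG-I, was at 12.5 and 31.0 in the young WT and KO libraries and 13 and 32.0 in the old ones. It was 2-fold higher in KO at both ages, by 1.25 and 1.23. Ube2l6, the conjugating enzyme for ISG15, was at 2.66, 7.04, 5.57 and 7.26, with young WT as the low library.

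A second list of interferon-induced genes held 91 genes that are not members. In the old comparison 67 of 81 measured were higher in KO, 10 were 2-fold higher and 0 were 2-fold lower, with a median of 0.32, where 50.3% of all genes were higher, 1.63% 2-fold higher and 2.66% 2-fold lower. In the young comparison 26 of 68 were higher, 1 was 2-fold higher, and the median was -0.07, where 50.5% of all genes were higher and 1.02% 2-fold higher. Ms4a4c was at a scaled FPKM of 1.23 (WT) and 1.66 (KO) in the young pair and 0.815 (WT) and 6.49 (KO) in the old pair, and Slfn2, a regulator of immune cell quiescence, at 2.12, 3.25, 3.22 and 13.9. Pyhin1 was at 3.38, 3.41, 5.64 and 20.4, Ifi30, a lysosomal thiol reductase, at 9.11, 8.17, 10.9 and 29.5, and the chemokine Ccl5 was unlisted in young WT and at 0.752, 0.855 and 4.85. Old KO was the highest library in all 5. They were named for the size of their old difference, so this is not a separate result. Phf11b, at 4.48, 1.90, 2.36 and 6.11, was lower in young KO and higher in old KO, and Trim12c had the same directions at 10.6, 6.95, 7.43 and 9.20. Ly6a went the other way at the later time, with differences of -0.49 and -0.92. Over the whole list of 149 genes, 98 of 119 measured were higher in old KO, 14 of them 2-fold (5 with a pseudocount of 5 and 24 with 0.1). Of the 149, 11 were listed only in old KO, and such genes could only be higher there. In the young comparison 43 of 100 were higher, 2 of them 2-fold (1 with a pseudocount of 5).

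**Figure D4:**
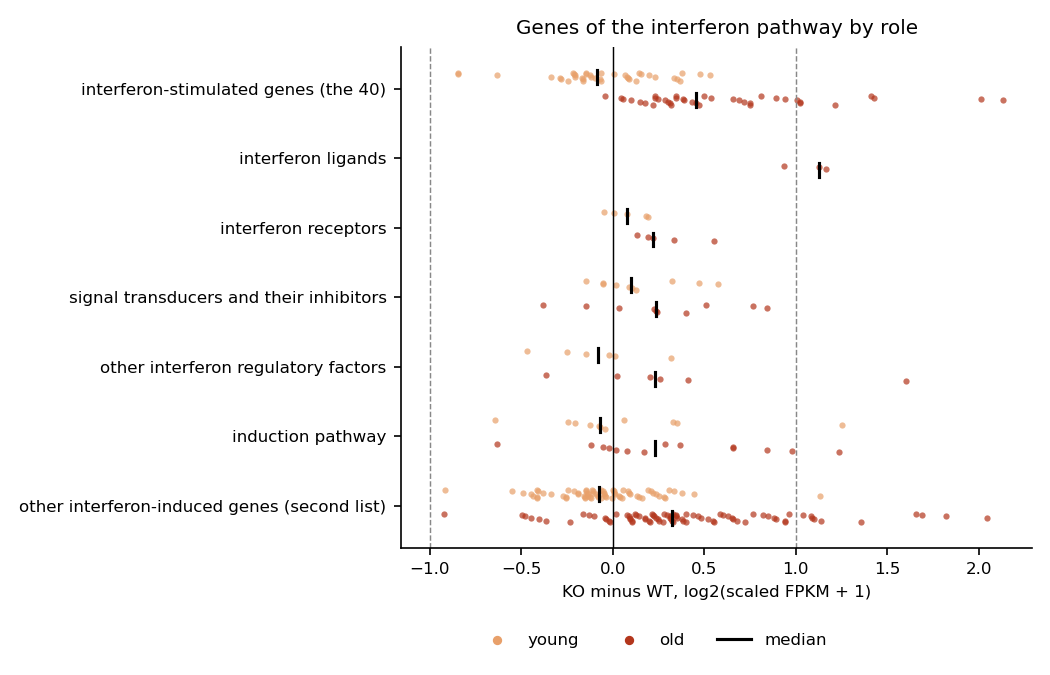
Difference in log2(scaled FPKM + 1), KO minus WT, of the 40 members and of the other interferon pathway genes by role, with 1 point per measured gene, dashed lines at the 2-fold mark and bars at the median of each role, in the young and the old comparison. Old medians lie above 0 in each role and for the members (0.46), at 0.22 for receptors and 1.13 for the 3 measured ligands. These ligands were listed only in old KO and measured only through it, with old WT set at its limit. Their old differences could therefore only be above 0. Trim25 is 2-fold higher at both ages.

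Markers of other blood cells differed between the same libraries. In bulk RNA, more cells of a type and more RNA per cell cannot be told apart. The summed scaled FPKM of the neutrophil list was 43.9 in WT against 35.9 in KO when young, and 77.2 against 438 when old, and all 15 measured markers were higher in old KO than in old WT. The monocyte and macrophage list summed to 205, 169, 178 and 580, with 13 of 14 higher, 9 of them 2-fold, and 1 lower by 2-fold. By mean over the 4 libraries, the highest neutrophil and monocyte markers were S100a8, at 2.49, 1.72, 19.5 and 123, Csf3r, at 27.0, 20.0, 20.3 and 26.6, Lyz2, at 113, 84.1, 72.5 and 176, and F13a1, at 15.7, 21.3, 35.2 and 171. Most mature myeloid markers were thus high in the library where the members were high, and their part in the members' levels was not tested. Of the plasmacytoid dendritic cell list, whose cells are the main source of interferon alpha, Siglech, Ccr9, Klk1, Klk1b27 and Pacsin1 were listed in no library, and 3 of 6 measured markers were higher in old KO. That list summed to 41.1, 32.5, 63.5 and 87.5 and includes the member Bst2 and the pathway gene Irf8. The plasma cell list was high in old WT, at 55.5, 68.9, 2236 and 222, and 0 of 12 were higher in old KO. The B cell list summed to 9.79, 8.40, 46.5 and 21.6 (Ms4a1 and Cd22 listed in no library), and the T and NK cell list to 67.8, 59.2, 50.1 and 62.8 (Cd4 and Cd8a listed in none). Neither sum was highest in old KO, but 7 of 9 measured T and NK cell markers were higher in old KO than in old WT, and 11 of the list were listed in old KO against 8 in old WT. The part of these cells in the values of Ifng and the members was not tested. The conventional dendritic and MHC class II list, with Xcr1 and Batf3 listed in no library, summed to 113, 92.1, 159 and 177, and the erythroid list to 330, 752, 342 and 240. The stem and progenitor list was close in all 4 libraries, at 271, 253, 237 and 222.

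**Figure D5:**
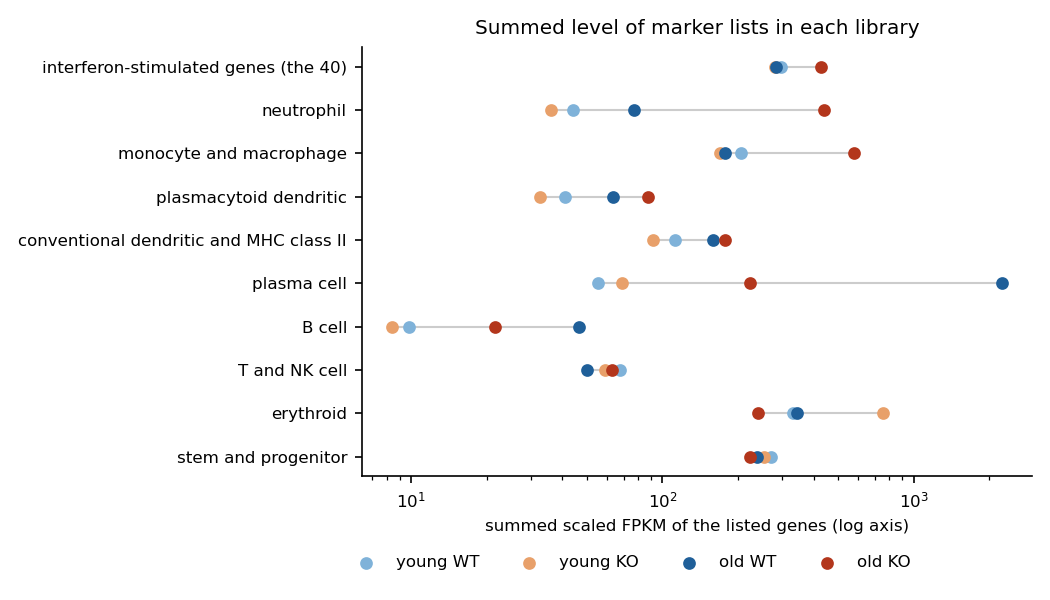
Summed scaled FPKM (log axis) of each marker list in the 4 libraries, with the sum of the 40 members beside them. Old KO is highest for the members (426) and for the neutrophil (438), monocyte (580), plasmacytoid dendritic (87.5) and conventional dendritic (177) lists. Bst2 and Irf8 make up most of the plasmacytoid dendritic sum in old KO, and without them that sum is lower than in old WT. Old WT is highest for the B cell (46.5) and plasma cell (2236) lists.

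The old differences of members with and without an ISRE core overlapped. The median was 0.47 over the 15 members with a core in a promoter window, 0.36 over the 16 without one and 0.75 over the 9 with no window at hand. In the young comparison the medians were -0.06, 0.04 and -0.28. Of the 8 members 2-fold higher in old KO, Isg15, Oas3 and Ifit1 held a core, Oasl1 did not, and the other 4 (Oas2, Mx1, Rtp4, Ifi27l2a) had no window.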

How the data were processed

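RNA-seq of LSK cells from 4 groups, with 1 library each, was analysed. Each library started from 100 ng of RNA, per the labels. The submitters' processing notes name Trimmomatic, HISAT2 2.0.4, StringTie 1.3.0 and the build mm10, and the authors deposited 1 FPKM value per gene and library. The counter, its use of strand and the handling of multi-mapping reads are not given in the sources used here. In all, 14468 gene IDs were read, 14382 matched a symbol table, 18 symbols turned into dates were restored, and rows that share a symbol were summed.

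Values were scaled by median ratios over 10935 genes, unlisted genes were set at FPKM 0.5 before scaling, and differences were taken with a pseudocount of 1. Python 3.11.15, pandas 2.3.3 and scipy 1.17.1 were used, and the code was tested on simulated data. With 1 library per group no test across libraries exists, so the members were described by counts beside those over all genes. The steps between low deposited values gave counted units: 60.8%, 62.7%, 72.7% and 69.8% of values (young WT, young KO, old WT, old KO) fell within 0.02 of a whole number of steps. Whether a unit is a read or a fragment is unknown, and the young values moved by a double step. The members and all gene, marker and motif lists were chosen with earlier results of these data known. All members could be named. Of the pathway list, a chosen group of receptors, kinases, factors and adaptors was named (1 of them is not reported here), with the 6 other genes of largest absolute difference in each KO comparison at a scaled FPKM of 2 or more. Of each marker list, the highest genes and those not listed could be named. Other scalings, pseudocounts, fold marks, treatments of unlisted genes and motif rules were tried.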

Additional observations from a re-analysis of the deposited data

Results flagged for a closer look

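In 9 members the KO library was lower than WT by at least 0.2 (log2 difference) in the young pair and higher by at least 0.2 in the old pair, a rule met by 5.39% of all genes measured in both. For a transcript of 2 kb the counting error of the young log2 ratio, with no 1 added, was 0.47 at a scaled FPKM of 1. It was 0.33 at 2 and 0.21 at 5. The differences given here have 1 added, where the error is smaller, so these errors cannot be set directly against them. Whether the young differences of Mx1, Oas2, Ifit2 and Dhx58, the members at lower levels among them, exceed counting error was not tested. The difference between the ages was not tested, since each group is 1 library. The old difference minus the young difference was 2.98 for Ifi27l2a (-0.84 young, 2.13 old), 2.26 for Rtp4 (-0.84 and 1.41), 1.64 for Oas2 (-0.21 and 1.43) and 1.31 for Mx1 (-0.29 and 1.02, with old WT at its limit). It was 0.98 for Xaf1 (-0.63 and 0.35), 0.79 for Gbp2 (-0.34 and 0.46), 0.59 for Adar (-0.21 and 0.38), 0.53 for Dhx58 (-0.28 and 0.25) and 0.49 for Ifit2 (-0.21 and 0.28).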

How the results depend on the processing

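No paired analysis was possible because every group has 1 library, and leaving out a replicate was not possible for the same reason. No 2-fold difference changed direction under any alternative, and 36 to 39 members were above 0 in the old KO comparison under each that kept all members. Without scaling, the median of all genes in the young comparison was -0.10, that of the members -0.20 and that of the pathway list -0.15, so 11 of 39 members were above 0 and small differences changed sign (Irf9, 0.07 to -0.04). The 8 members 2-fold higher in old KO became 5 with upper-quartile scaling and 5 with total scaling (Ifit1, Mx1 and Oasl1 dropped out), 1 with a pseudocount of 5 (Ifi27l2a) and 16 at a 1.5-fold mark. Without scaling Oasl1 dropped out, and with only genes listed in all 4 libraries Isg15 and Mx1 did. The old median was 0.30 with a pseudocount of 5.

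With old set against young in WT, 0 members were 2-fold higher without scaling, with upper-quartile or total scaling, or with a pseudocount of 5, and 3 at 1.5-fold. The count lower was 2 with a pseudocount of 0.1, 0 with 5, 2 with unlisted genes at 0, and 4 at 1.5-fold. In KO, the median was 0.30 with total scaling and 0.31 with a pseudocount of 5, and the count higher was 8 with a pseudocount of 0.1, 2 with 5, and 14 at 1.5-fold. In the young comparison 1 member was higher and 1 lower with a pseudocount of 0.1, and 3 were lower at 1.5-fold. The median of the old difference minus the young difference was 0.65 with a pseudocount of 0.1 and 0.31 with 5, and the count at 2-fold was 2 with 5 and 17 at 1.5-fold. For the pathway list the old count was 24 with a pseudocount of 0.1, 5 with 5 and 36 at 1.5-fold, the old median was 0.20 with a pseudocount of 5, and the young count was 1. Counting only windows with 2 or more cores left 6 members. Over the 28 measured members whose loci overlap no other listed gene, a choice made after seeing the data, 27 were above 0 and 7 were 2-fold higher, with a median of 0.48.

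Depth limits the members below a scaled FPKM of 2 most, and Ifit3 could not be measured.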

Other observations

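Class I antigen presentation genes and the Schlafen family were read from the second list after their values were seen. Of 12 class I genes, 9 were higher in old KO than in old WT, against 50.3% of all measured genes. In the young pair 4 were higher in KO, against 50.5%. None differed by 2-fold, and old differences ran from -0.10 to 0.35. B2m, the light chain of class I molecules, was at a scaled FPKM of 211 and 195 in the young WT and KO libraries and 351 and 439 in the old ones, and H2-D1 at 145, 139, 187 and 237. For these, which had the highest levels, the KO difference was 0.32 and 0.35 in the old pair and -0.11 and -0.05 in the young pair. Of 7 Schlafen genes, 6 were higher in old KO (50.3% of all measured genes) and 2 (Slfn2 and Slfn5) by 2-fold (1.63%). Slfn1, which was unlisted in both WT libraries, was at 0.605 in young KO and 1.94 in old KO, and Slfn5 at 2.06, 1.29, 1.42 and 4.17. Their relatives Slfn3 (9.89, 11.7, 10.8 and 9.53) and Slfn9 (13.8, 13.9, 11.7 and 13.9) were nearly level, so members of this family were not alike. Within the Oas1 copies, Oas1g was at 0.937, 1.45, 0.714 and 2.77, while Oas1b was at 2.31, 3.03, 0.928 and 1.24 and Oas1c at 2.32, 2.00, 2.38 and 1.43. The old difference was 1.14 for Oas1g, 0.22 for Oas1b and -0.48 for Oas1c, though reads may be shared among the copies.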
